A study of Mus musculus with 22 samples.

Results

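The collagen genes of the mouse eye were compared between AdipoR1-/- (KO) and WT mice in the neural retina and the retinal pigment epithelium (RPE). The members were the protein-coding genes whose symbol has the form Col, number, a, number, and 44 genes met this rule among the 53801 genes of the bulk count tables and the 19324 genes of the single-cell matrix. By type, 11 of them encode fibrillar chains, 8 encode basement membrane chains (types IV, XV and XVIII) and 25 belong to other types, namely 9 fibril-associated, 6 type VI, 3 short-chain, 4 transmembrane and 3 other chains. The study asked what loss of AdipoR1, a receptor for adiponectin with ceramidase activity, does to the retina and the RPE. Bulk RNA-Seq libraries were made from P30 mice, 4 for each genotype and tissue, where P30 is postnatal day 30. Single-cell libraries of the retina were made at P19, P25 and P30, with 1 library for each genotype and age, each from 4 pooled retinae. All mice were of the C57BL/6J strain by the labels, untreated, and the KO mice were homozygous for the Adipor1tm1Dgen allele, which lacks the gene in all cell types and not in the eye alone and was backcrossed into that strain. The RPE samples were cells shaken off the eyecup after the retina, cornea and lens had been taken away, so that other ocular tissues could enter them. The study describes the bulk replicates as mice, while the labels tie no replicate number to an animal or litter.

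Collagens are secreted or membrane proteins that wind 3 chains into a triple helix. Fibrillar types build the tensile fibers of connective tissue and of the vitreous gel, type IV forms the sheet-like network of basement membranes, and the remaining types decorate fibrils, build microfibrils and hexagonal lattices, or sit in the plasma membrane. In the eye they form the inner limiting membrane and the vessel walls of the retina, and Bruch's membrane, on which the RPE rests.

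Adipor1 itself was at 589.0 to 607.3 counts-per-million (CPM) in the 4 WT retina libraries and at 136.3 to 142.0 CPM in the KO, a log2 difference of -2.12 ± 0.0393 (SE), with edgeR's quasi-likelihood test giving an adjusted p of 4.61e-13. In the RPE it was at 374.3 to 479.4 CPM in the WT and at 139.3 to 152.1 CPM in the KO (log2 difference -1.49, adjusted p 0.000207). Bulk libraries held 20133143 to 38409496 counts. The KO retina libraries had less of the rod markers (29620 to 33990 CPM summed over 7 genes against 57380 to 63210 CPM in the WT, 6 of 7 genes lower) and more of the microglia markers (136.5 to 165.4 against 35.1 to 37.3 CPM, 8 of 8 higher). In such bulk samples, fewer cells of a type and less RNA per cell cannot be told apart. KO retina replicate 2 stood apart, with 392.9 CPM of corneal epithelium markers and 103 CPM of striated muscle markers, where the other retina libraries had at most 6.90 and 9.50 CPM. Among the RPE libraries, rod markers ran from 620.8 to 15140 CPM, lens markers from 17.2 to 627.2 CPM and corneal markers from 587.9 to 5423 CPM, with no clean division by genotype. Other marker sums did divide. Microglia markers were at 684.6 to 747.2 CPM in the KO and 373.9 to 617.6 CPM in the WT, 6 of 8 higher. Müller glia markers were at 17900 to 18470 against 10980 to 16080 CPM (1 of 7 higher). RPE markers were at 16540 to 17480 against 17790 to 27290 CPM (2 of 6 lower). The RPE markers Rpe65, Lrat, Rgr, Rdh5 and Pmel were high in every RPE library, whereas Best1 averaged 0.952 CPM in the WT.

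The RPE held the more collagen-rich libraries. Among WT libraries, 37 of 44 collagens differed between RPE and retina, against 84.6% of all genes tested, with 27 higher in the RPE (43.0% of all genes) and 10 lower. All 8 basement membrane chains and all 3 short-chain members were higher in the RPE, and the median log2 difference over the 44 members was 1.39 against 0.0127 over all genes. Per length of exon, Col8a2, a chain of the hexagonal type VIII lattice, was the most abundant collagen of the WT RPE at 520.5 reads-per-kilobase-per-million (RPKM). It was followed by Col9a3, a chain of fibril-associated type IX, at 350.2 RPKM and by Col8a1, the partner of Col8a2, at 235.6 RPKM. Col18a1, the precursor of endostatin, was at 108.1 RPKM. The collagens of the WT retina were lower on the same scale, with Col6a1, a type VI microfibril chain, at 16.4 RPKM, the transmembrane chain Col23a1 at 16.3 RPKM and the type IX chain Col9a1 at 15.1 RPKM. Against the retina, Col8a2 was higher in the RPE by 9.75, Col8a1 by 8.33, Col9a3 by 6.58 and Col18a1 by 5.08 on the log2 scale. Col19a1 (-2.98), Col25a1 (-2.47) and Col6a4 (-2.04) were among the 10 members lower in the RPE.

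In the KO retina, more collagens rose than fell. Of 43 members that passed the filter on low counts, 23 passed an adjusted p of 0.05, against 30.9% of all genes tested, with 18 higher (16.2% of all genes) and 5 lower (14.7%). The remaining member, Col10a1, was at 0.224 CPM in the WT and 0.244 CPM in the KO and was not tested. The median log2 difference was 0.339 over the 43 members and 0.00359 over all genes. With a fold change of at least 1.5 as well, 10 members passed, against 10.0% of all genes. The 4 KO and 4 WT values did not overlap for 16 members, against 31.4% of all genes. Without KO replicate 2, 22 members passed, 18 of them higher, and 20 were shared with the 23, while without WT replicate 1 the count was 15. Of all genes, 5535 passed without KO replicate 2 and 4941 without WT replicate 1, against 5990 with all libraries. With library totals in place of TMM scaling, 28 members passed, 25 higher and 3 lower, and the median of all genes moved to 0.114 while that of the collagens moved to 0.45.

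**Figure D1:**
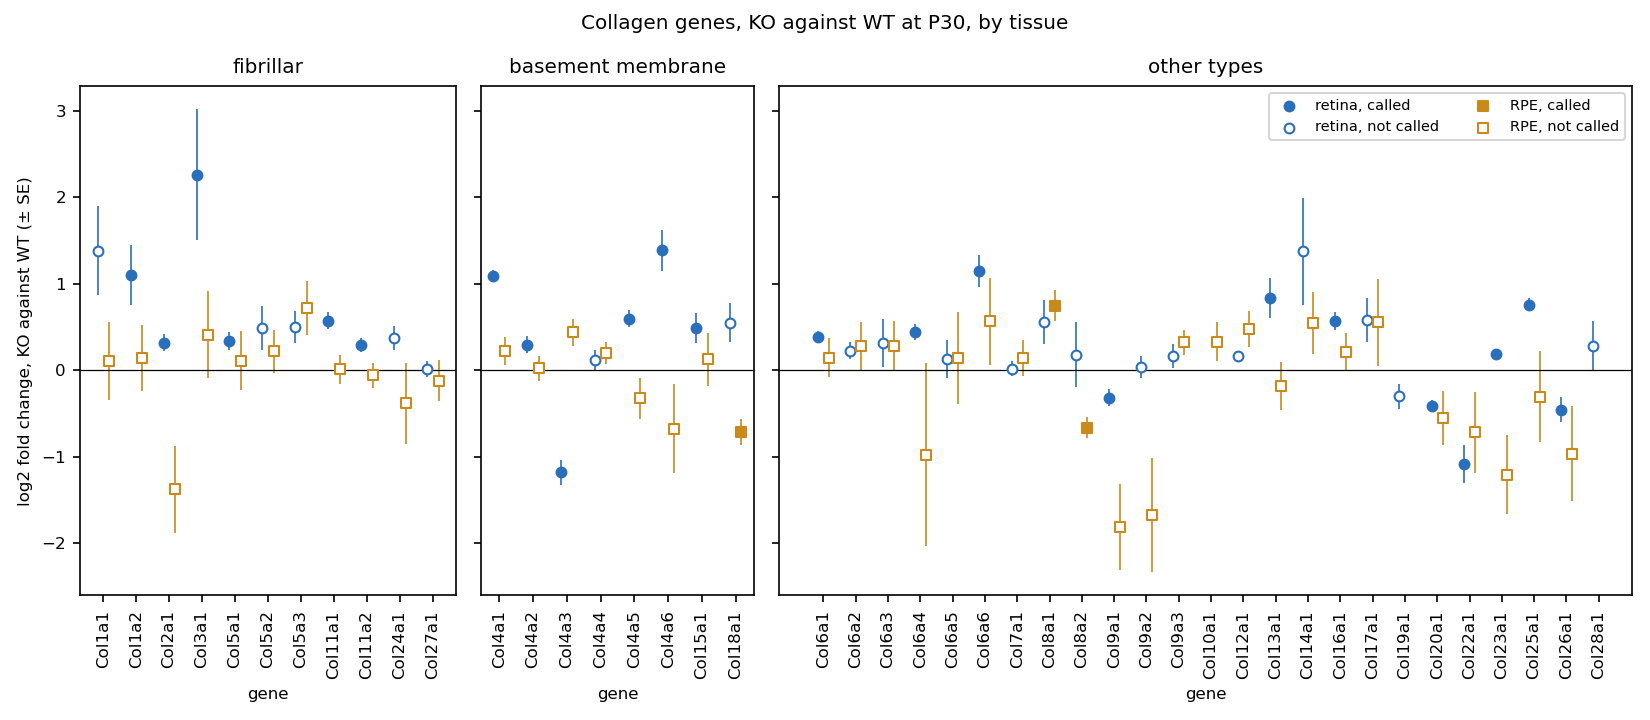
Log2 difference between KO and WT for each collagen gene in bulk retina (circles) and RPE (squares) libraries, with bars of 1 SE from the fit over 4 libraries per group, in panels for fibrillar, basement membrane and other types. Filled symbols passed an adjusted p of 0.05, which 23 members did in the retina and 3 in the RPE.

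The type IV chains carried the clearest change. Col4a1, which with Col4a2 makes the type IV network found in nearly every basement membrane, was at 39.1, 43.4, 46.4 and 45.0 CPM in the WT retina and at 88.7, 87.8, 93.4 and 101.8 CPM in the KO. Every KO library was above every WT library, and the log2 difference was 1.10 ± 0.0617 (adjusted p 2.23e-08). Col4a2 was at 33.7, 40.9, 39.6 and 39.4 CPM in the WT and at 43.0, 40.8, 47.2 and 58.0 CPM in the KO. It rose less (0.30 ± 0.0981, adjusted p 0.0359), and its lowest KO library lay just below the highest WT library. These partner genes start head to head on chromosome 8 and share their first 22 bases (GRCm38.p6, chr8:11312805-11312826, RefSeq, plus strand), which are printed because Col4a1 is read from them to the left and Col4a2 to the right.
Shared by Col4a1 and Col4a2: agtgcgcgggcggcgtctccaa

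Col4a3, a chain of the Col4a3-Col4a4-Col4a5 network known from the glomerulus and Bruch's membrane, went the other way. It was at 11.6, 8.0, 11.4 and 13.4 CPM in the WT retina and at 5.08, 4.13, 5.69 and 4.67 CPM in the KO. It fell by 1.18 ± 0.146 on the log2 scale (adjusted p 3.68e-05), and no KO library reached a WT library. Its partner Col4a4 was at 14.4, 11.8, 13.4 and 16.2 CPM in the WT and at 15.7, 16.0, 11.9 and 16.99 CPM in the KO. These values overlapped, and Col4a4 did not pass the test (0.12, adjusted p 0.473). Exons of Col4a3 share 5.65% of their bases with C430014B12Rik on the opposite strand, and the sources used here do not say whether the counting used strand. RPE markers summed to 23.2 to 72.7 CPM in the WT retina libraries and to 37.2 to 70.03 CPM in the KO retina libraries. The genes start head to head on chromosome 1, and 71 bases without an annotated exon separate them (GRCm38.p6, chr1:82586850-82586920, minus strand, the direction of Col4a4), and Adipor1 lies 51.8 Mb from Col4a3 and 52.0 Mb from Col4a4 on the same chromosome. The stretch is shown because both genes start from it while 1 of them changed.
Between Col4a4 and Col4a3: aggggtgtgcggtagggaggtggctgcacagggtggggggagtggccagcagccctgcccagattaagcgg

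The motif GGGCGG, which 20.7% of windows of the same length in front of 32851 RefSeq gene starts hold, does not occur in these 71 bases on either strand, and neither does CCAAT (13.3% of windows) or TATAAA (4.41%).

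Col4a5 and Col4a6, the X-linked chains whose starts lie 1308 bases apart, both rose in the retina. Col4a5 was at 16.1, 21.8, 21.2 and 23.2 CPM in the WT and at 29.1, 32.8, 28.7 and 33.8 CPM in the KO (0.60 ± 0.0994, adjusted p 0.000467). Col4a6 was at 1.77, 5.61, 4.37 and 4.54 CPM in the WT and at 10.6, 11.3, 8.63 and 12.1 CPM in the KO (1.39 ± 0.236, adjusted p 0.000541). For both chains the KO libraries were all above the WT libraries. Of the 8 basement membrane members, 5 were higher (16.2% of all genes), 1 was lower (14.7%) and 2 did not pass, with a median of 0.518. The fifth that rose was Col15a1, a vascular basement membrane chain (0.49, adjusted p 0.0469). The higher members numbered 3 without WT replicate 1, WT replicate 4 or KO replicate 4. Col18a1 was at 17.4, 39.7, 21.2 and 32.5 CPM in the WT and at 44.7, 47.4, 26.5 and 43.5 CPM in the KO (0.55, adjusted p 0.0854), and passed once replicate numbers were blocked (0.58, adjusted p 0.00587).

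**Figure D2:**
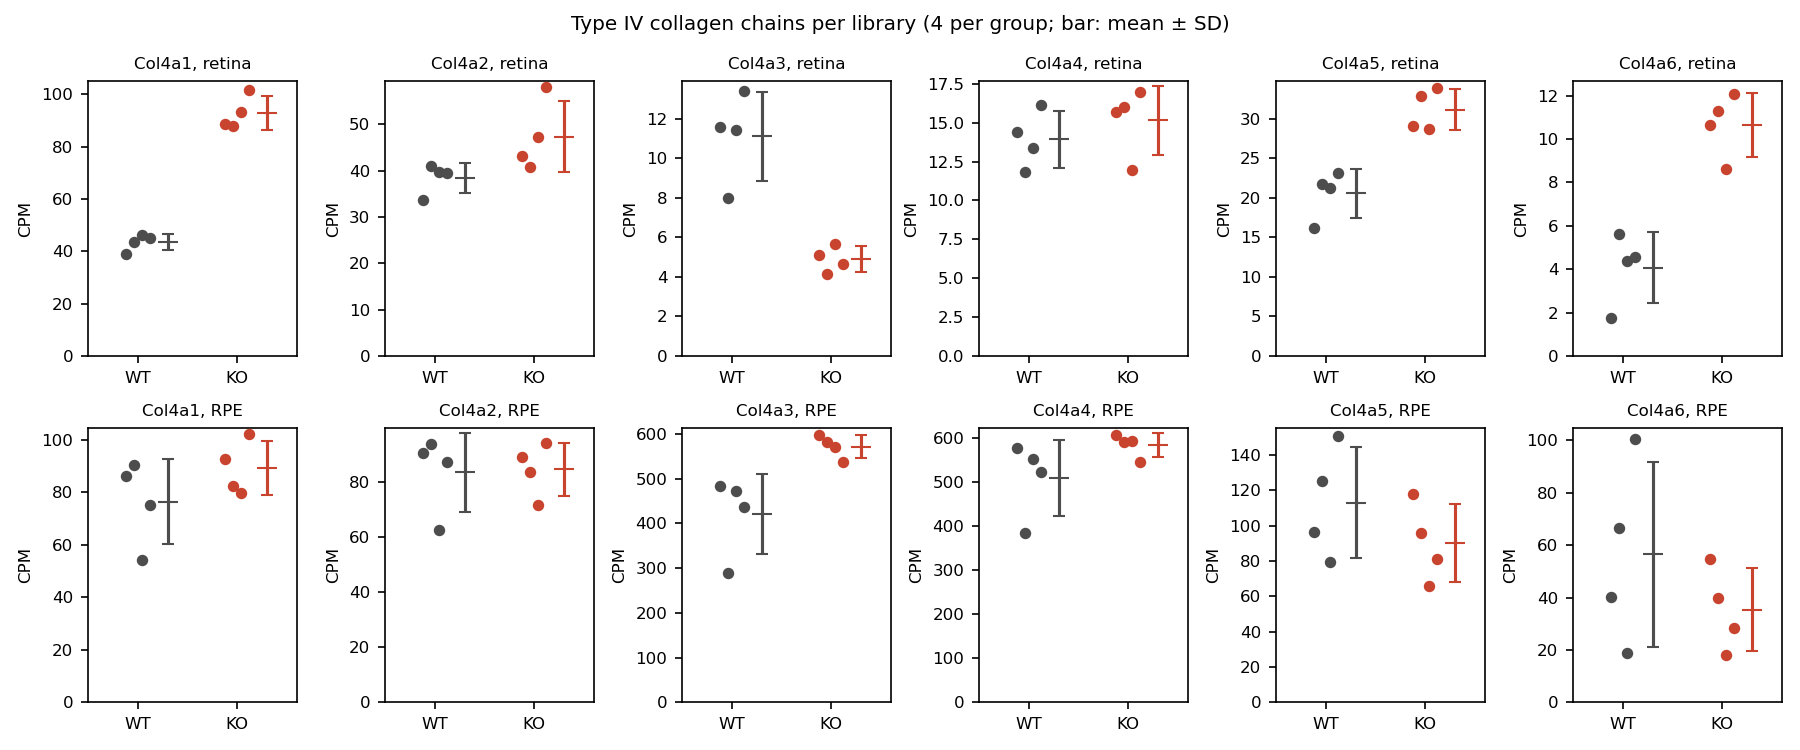
CPM of the 6 type IV chains in each bulk library of retina and RPE, with points for single libraries, bars for the mean and SD of 4, and axes from 0. In the retina the KO libraries of Col4a1, Col4a5 and Col4a6 sit above and those of Col4a3 below all WT libraries, and in the RPE only Col4a3 has all KO libraries, 536.3 to 597.8 CPM, above the WT.

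Within a library, the ratio of partner chains does not depend on the scaling between libraries. The Col4a1 to Col4a2 ratio of counts was 1.16, 1.06, 1.17 and 1.14 in the WT retina and 2.06, 2.15, 1.98 and 1.76 in KO retina. The Col4a3 to Col4a4 ratio was 0.802, 0.678, 0.854 and 0.83 in the WT and 0.323, 0.258, 0.476 and 0.275 in the KO. The Col4a6 to Col4a5 ratio was 0.11, 0.257, 0.206 and 0.196 in the WT and 0.365, 0.344, 0.3 and 0.357 in the KO. The partners therefore changed unequally in all 3 pairs, with geometric means that moved from 1.13 to 1.98, from 0.788 to 0.323 and from 0.184 to 0.341. Each difference had a two-sided exact permutation p of 0.0286, the smallest that 4 against 4 libraries allow, and 0.0381 after adjustment over the 8 ratios examined, which were chosen after the levels had been seen. In the RPE the shifts were smaller and, for Col4a3, opposite in sign. The Col4a1 to Col4a2 ratio rose from 0.908 to 1.05 and the Col4a3 to Col4a4 ratio from 0.819 to 0.978, both without overlap (exact permutation p 0.0286). The Col4a6 to Col4a5 ratio of the RPE was 0.432 in the WT and 0.369 in the KO and overlapped (exact permutation p 0.571).

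Fibrillar chains all had positive differences in the KO retina, with a median of 0.492. The test was passed by 6 of 11, where 30.9% of all genes passed and 16.2% were higher. The count was 1 without WT replicate 1, 3 without WT replicate 3 and 1 in a single fit of all 16 libraries, and Col11a1 passed in each of them. Col11a1, a minor chain that sets fibril diameter, was at 15.9, 17.5, 18.3 and 19.0 CPM in the WT and at 23.2, 23.4, 26.5 and 32.2 CPM in the KO (0.57 ± 0.1, adjusted p 0.000682). The 3 other chains of cartilage and vitreous type fibrils or their relatives that rose did so by less, namely Col11a2 (0.29, adjusted p 0.0156), Col2a1 of vitreous type II (0.32, adjusted p 0.0275) and Col5a1 of type V (0.34, adjusted p 0.0307). Col3a1, the chain of type III fibers in vessel walls, was at 2.62, 2.96, 2.83 and 2.15 CPM in the WT and at 3.13, 40.1, 3.08 and 3.87 CPM in the KO. Its log2 difference of 2.26 (adjusted p 0.0373) rested on KO replicate 2, the library with the corneal and muscle markers, and was 0.34 without it (adjusted p 0.106). Col1a2, a chain of type I fibers, was at 3.47, 7.12, 6.44 and 5.92 CPM in the WT and at 9.12, 23.3, 5.86 and 10.8 CPM in the KO, which overlapped. It passed with all libraries (1.10, adjusted p 0.0269) and not without KO replicate 2 (0.58, adjusted p 0.0554). Col1a1, the other type I chain, was at 1.09 to 1.32 CPM in the WT and at 1.07, 7.94, 1.69 and 1.93 CPM in the KO (1.39, adjusted p 0.0581). Fibroblast markers summed to 17.3 to 41 CPM in the WT retina and to 49.0, 89.2, 29.3 and 43.6 CPM in the KO, again highest in replicate 2. With replicate numbers as blocks, Col1a1 (1.08, adjusted p 0.0309), Col24a1 (0.37, adjusted p 0.0229) and Col5a3 (0.54, adjusted p 0.0207) passed as well, and so did the short-chain member Col8a1 (0.61, adjusted p 0.00214, against 0.56 and 0.118 without blocks).

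Type VI chains rose or did not pass. Col6a1 was at 69.2, 70.3, 72.5 and 74.7 CPM in the WT retina and at 83.0, 87.9, 95.9 and 108.3 CPM in the KO (0.39 ± 0.0689, adjusted p 0.000814). Col6a6, a long chain that can take the place of Col6a3 in the type VI trimer, was at 2.31 to 2.37 CPM in the WT and at 3.41, 4.67, 6.03 and 6.81 CPM in the KO (1.14 ± 0.186, adjusted p 0.000382). Col6a4, a chain of the same kind, was at 7.28 to 9.10 CPM in the WT and at 10.4 to 13.1 CPM in the KO (0.45, adjusted p 0.00275). None of these 3 overlapped between genotypes, and Col6a2 (0.22, adjusted p 0.106), Col6a3 and Col6a5 did not pass.

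Of the 4 transmembrane collagens 3 rose, where 16.2% of all genes did. Col25a1, a membrane collagen of neurons, was at 16.0, 17.4, 15.9 and 17.7 CPM in the WT retina and at 26.3, 26.6, 29.4 and 31.5 CPM in the KO (0.76 ± 0.0722, adjusted p 3.18e-06). Col13a1, a membrane collagen of the neuromuscular junction, was at 0.782 ± 0.0546 CPM (SD, n = 4) in the WT and at 1.02 to 1.85 CPM in the KO (0.83, adjusted p 0.0149). Col23a1 was at 86.6 to 98.9 CPM in the WT and at 101.5 to 114.2 CPM in the KO (0.19, adjusted p 0.0159). In each case all KO libraries were above all WT libraries. Col17a1, the hemidesmosome collagen, did not pass (0.58, adjusted p 0.0987). Markers of starburst amacrine cells, summed over Chat, Slc18a3 and Slc5a7, were at 40.9 to 43.6 CPM in the WT and at 41.2 to 45.0 CPM in the KO.

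The fibril-associated group moved in both directions, with 1 of 9 members higher (16.2% of all genes) and 3 lower (14.7%) and a median of 0.0329. Col16a1, a chain found on fibrils and at cell contacts, was at 3.52 to 4.48 CPM in the WT and at 5.58 to 6.04 CPM in the KO (0.57, adjusted p 0.000883). Col20a1, a fibril-associated chain, fell from 45.0, 45.7, 49.4 and 43.3 CPM to 36.8, 36.6, 29.8 and 34.1 CPM (-0.42 ± 0.0703, adjusted p 0.000519). Col22a1, a chain of tissue junctions such as that between muscle and tendon, fell from 3.44, 3.35, 2.37 and 3.31 CPM to 1.21, 2.28, 1.08 and 1.26 CPM (-1.09 ± 0.222, adjusted p 0.00216). The highest KO library of Col22a1 was just below the lowest WT library. Col9a1 was at 62.1 to 86.3 CPM in the WT and at 50.8 to 66.5 CPM in the KO (-0.32, adjusted p 0.0245), which overlapped. Its partners Col9a2 (0.03, adjusted p 0.877) and Col9a3 (0.16, adjusted p 0.421) did not pass. The remaining member that fell was Col26a1, from 4.12 to 6.03 CPM to 3.03 to 4.47 CPM (-0.46, adjusted p 0.0298).

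Far fewer collagens passed in the RPE. Of 42 members tested, 3 passed an adjusted p of 0.05, against 6.73% of all genes, with 1 higher (2.84%) and 2 lower (3.89%), and 9 had an unadjusted p below 0.05. Col19a1 and Col28a1 did not pass the filter on low counts. The count was 0 without KO replicate 2, 3 or 4, 1 without WT replicate 4 or KO replicate 1 and 5 without WT replicate 1. Calls over all genes moved too, to 696, 834 and 645 without KO replicate 2, 3 and 4 and to 2130 without WT replicate 1, from 1278. The median log2 difference was 0.119 over the members and -0.0185 over all genes. It had no stable sign, at 0.276 without WT replicate 1, 0.00197 without KO replicate 1, -0.00636 without WT replicate 4 and -0.0916 without WT replicate 3. Of the members, 5 had no overlap between genotypes, against 15.2% of all genes. None of the 11 fibrillar members passed by edgeR's quasi-likelihood test, and 1 had an unadjusted p below 0.05.

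The 2 type VIII chains moved in opposite directions. Col8a1 was at 2081, 1194, 2063 and 2043 CPM in the WT RPE and at 3137, 3028, 3077 and 3128 CPM in the KO. All KO libraries were above the WT libraries, WT replicate 2 was far below the other 3, and the log2 difference was 0.74 ± 0.18 (adjusted p 0.0482). Without WT replicate 2 it was 0.59 (adjusted p 0.00111), and with replicate numbers as blocks 0.78 (adjusted p 0.0556). Col8a2 was at 2558, 1872, 2249 and 2667 CPM in the WT and at 1568, 1453, 1393 and 1478 CPM in the KO. It fell by 0.67 ± 0.124 (adjusted p 0.018), again without overlap. The Col8a1 to Col8a2 ratio of counts was 0.814, 0.638, 0.917 and 0.766 in WT RPE and 2.0, 2.08, 2.21 and 2.12 in KO RPE, a change of its geometric mean from 0.777 to 2.1. In WT RPE the Col8a2 count was thus the larger in each library, and in KO RPE the Col8a1 count. The exact permutation p of 0.0286 (0.0381 adjusted over 8 ratios) is no separate support. Both chains had already been seen to separate in opposite directions, which fixes it. In the retina this ratio overlapped, at 2.3 in the WT and 2.87 in the KO (exact permutation p 0.343). The 250 bases in front of both genes are shown because the chains are partners in 1 lattice and changed in opposite directions, in RefSeq's GRCm38.p6 sequence with GGGCGG on either strand in capitals.
Col8a1 (chr16:57754738-57754987, minus strand): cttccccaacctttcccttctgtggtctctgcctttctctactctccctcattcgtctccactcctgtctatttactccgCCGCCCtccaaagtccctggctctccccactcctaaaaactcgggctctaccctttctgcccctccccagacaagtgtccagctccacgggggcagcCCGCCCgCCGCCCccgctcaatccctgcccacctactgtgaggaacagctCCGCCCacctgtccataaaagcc
Col8a2 (chr4:126286544-126286793, plus strand): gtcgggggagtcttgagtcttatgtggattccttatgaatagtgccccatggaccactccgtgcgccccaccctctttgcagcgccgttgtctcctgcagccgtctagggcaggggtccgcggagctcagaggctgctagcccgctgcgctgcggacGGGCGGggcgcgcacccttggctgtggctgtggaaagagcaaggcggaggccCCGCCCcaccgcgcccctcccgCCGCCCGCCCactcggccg

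Both windows hold 4 matches to GGGCGG, which 32.7% of all such windows hold at least once, and neither holds CCAAT (33.8% of windows) or TATAAA (12.4%). The only annotated exon that overlaps the window of Col8a2 belongs to Col8a2 itself, whose annotated start is the last base of the window.

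Col18a1, the only basement membrane member that passed in the RPE, was at 785.4, 737.7, 583.2 and 929.7 CPM in the WT and at 547.8, 453.3, 440.2 and 404.1 CPM in the KO. It fell by 0.72 ± 0.154 (adjusted p 0.031), with all KO libraries below the WT libraries. Beside Col8a2 and Col18a1, the summed RPE markers were at 17790 to 27290 CPM in the WT and at 16540 to 17480 CPM in the KO, where Rpe65 and Lrat, the isomerase and acyltransferase of the visual cycle, were lower; their part in these differences was not tested. Without KO replicate 2 the adjusted p was 0.0561 for Col8a2, 0.0893 for Col18a1 and 0.102 for Col8a1, with differences of -0.65, -0.70 and 0.76. Col9a3 was at 1500, 955.8, 1410 and 1532 CPM in the WT and at 1726, 1706, 1681 and 1635 CPM in the KO, without overlap, and did not pass (0.32 ± 0.149, adjusted p 0.276), and 6.07% of its exon bases are shared with Tcfl5 on the opposite strand. Col4a3 was at 483.8, 288.9, 473.5 and 437.7 CPM in the WT and at 597.8, 581.2, 570.1 and 536.3 CPM in the KO, and did not pass either (0.44 ± 0.156, adjusted p 0.159). In these 3 genes with higher KO values, Col8a1, Col9a3 and Col4a3, WT replicate 2 was the lowest of all libraries, and it was 1 of 2 WT libraries with high rod markers (15140 and 15090 CPM in replicates 2 and 3, against 954.3 and 1441 CPM in replicates 1 and 4).

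**Figure D3:**
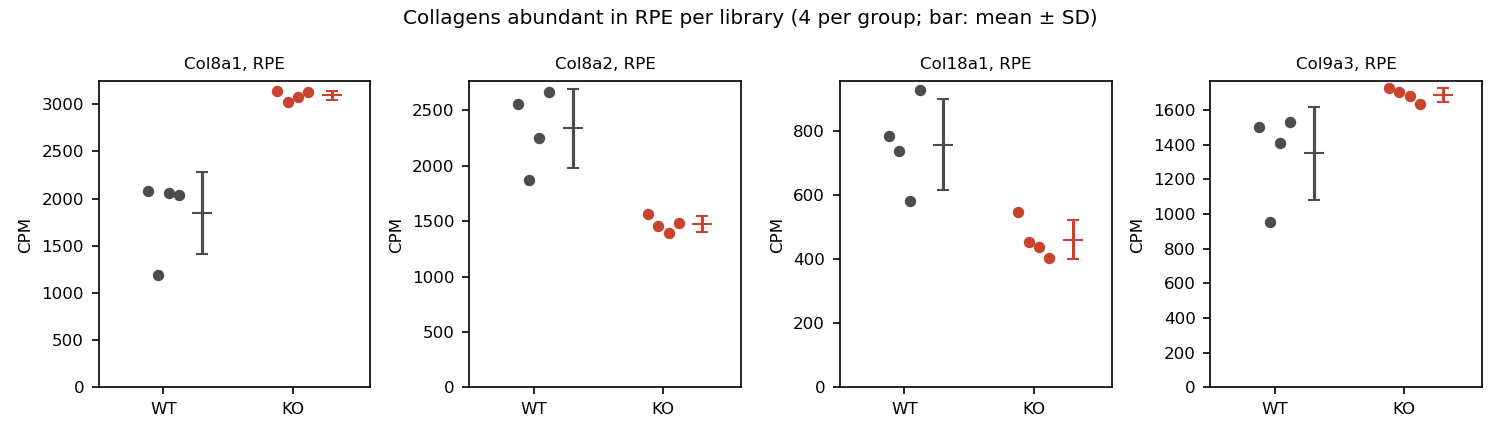
CPM of Col8a1, Col8a2, Col18a1 and Col9a3 in the 8 bulk RPE libraries, with a point for each library and the mean and SD of 4. The KO libraries lie close together, from 3028 to 3137 CPM for Col8a1 and from 1393 to 1568 CPM for Col8a2, and do not overlap with the WT libraries.

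Other collagens of the RPE libraries had larger differences or larger spreads and did not pass. Col9a1 was at 40.9, 58.3, 18.0 and 111.0 CPM in the WT and at 17.6, 19.2, 16.8 and 11.2 CPM in the KO (-1.81 ± 0.496, adjusted p 0.0742), and passed without WT replicate 3 (-2.11, adjusted p 0.0214). Col9a2 (-1.68, adjusted p 0.205), Col2a1 (-1.38, adjusted p 0.171) and Col23a1 (-1.21, adjusted p 0.186) had negative differences of similar size and did not pass. Lens markers, 2 of 6 of them lower in the KO, summed to 32.3, 289.3, 30.3 and 627.2 CPM in the WT RPE libraries and to 17.2 to 34.9 CPM in the KO, highest in the WT libraries with the most Col9a1, and their part in these differences was not tested. Col3a1 was at 611.2, 200.3, 126.9 and 197.7 CPM in the WT and at 575.2, 341.3, 224.0 and 369.7 CPM in the KO (0.41, adjusted p 0.672). Fibroblast markers were at 609.2, 417.7, 270.4 and 616.8 CPM in the WT RPE libraries and at 677.9, 471.7, 364.1 and 569.3 CPM in the KO, lowest in replicate 3 of both genotypes, as Col3a1 was. The type I chains Col1a1 (0.10, adjusted p 0.917) and Col1a2 (0.14, adjusted p 0.857) did not pass.

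The genotype effect differed between the tissues for 3 of 44 members, against 8.84% of all genes, with 2 lower in the RPE than in the retina (5.73% of all genes) and 1 higher (3.11%). All 3 were basement membrane chains. For Col4a1 the effect in the RPE was smaller by 0.85 ± 0.171 on the log2 scale (-0.85, adjusted p 0.00559), for Col18a1 the difference was -1.24 ± 0.337 (adjusted p 0.0325) and for Col4a3 it was 1.64 ± 0.240 (adjusted p 0.000584). The retina and RPE effects of Col4a3 were -1.18 and 0.44, and those of Col18a1 0.55 and -0.72. The interaction was negative for 32 of 44 members, with a median of -0.424 against -0.0532 over all genes, and 11 members had an unadjusted p below 0.05. Without WT replicate 3 the count was 7, with 1706 of all genes called against 1863 with all libraries.

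Many genes that fold, cut, cross-link, degrade or bind collagens rose in the KO retina as well. The 68 genes were listed with earlier results of these data known, and 63 were tested in the retina. Of these, 35 passed, all of them higher, where 30.9% of all genes passed and 16.2% were higher. The median was 0.324 against 0.00359 over all genes. They comprised 8 of 18 folding and modification genes, 9 of 12 propeptide cleavage and cross-linking genes, 6 of 9 degrading enzymes and their inhibitors, 6 of 9 receptors and 6 of 15 basement membrane partners. Pcolce, which enhances the removal of procollagen C-propeptides, was at 5.07, 7.47, 6.56 and 6.69 CPM in the WT and at 169.2, 179.1, 164.3 and 177.7 CPM in the KO (4.74 ± 0.0822, adjusted p 2.64e-13). In the single cells it was among the leading genes of a rod cluster of 1852 cells, 97.5% of them from the KO library of P30. Loxl4, a lysyl oxidase that cross-links fibers, was at 0.951 to 1.23 CPM in the WT and at 13.6 to 17.6 CPM in the KO (3.80 ± 0.12, adjusted p 7.73e-11). Timp1, an inhibitor of matrix metalloproteinases, averaged 0.335 CPM in the WT and 4.30 CPM in the KO (3.65, adjusted p 7.44e-08), and its relative Timp2 73.4 and 110.3 CPM (0.59, adjusted p 1.64e-06). None of these 4 genes overlapped between genotypes.

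Among the prolyl hydroxylases, P3h3 averaged 32.1 CPM in WT retina and 64.9 CPM in the KO (1.02, adjusted p 7.44e-08), and P4ha3 0.763 and 1.58 CPM (1.03, adjusted p 0.000635). The collagen receptors Ddr1 (0.63, adjusted p 5.03e-06), a receptor tyrosine kinase, and Itga2 (1.13, adjusted p 6.46e-05), an integrin chain, rose too. Of the partners in basement membranes, Agrn, a heparan sulfate proteoglycan, averaged 133.5 CPM in the WT and 453.2 CPM in the KO (1.76 ± 0.056, adjusted p 7.73e-11), and the laminin chain Lama5 27.3 and 46.5 CPM (0.77, adjusted p 1.38e-05).

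In the RPE, 4 of 64 tested handling genes passed, near the 6.73% of all genes, and 13 had an unadjusted p below 0.05. Without WT replicate 1 the count was 8 and without WT replicate 2 it was 7. Pcolce was at 506.4, 408.2, 431.4 and 558.7 CPM in the WT and at 1613, 1604, 1659 and 1689 CPM in the KO (1.79 ± 0.113, adjusted p 0.000227). Loxl4 fell from 79.3 to 91.9 CPM to 44.6 to 54.1 CPM (-0.76 ± 0.0855, adjusted p 0.00223), in contrast to the retina (interaction -4.54, adjusted p 3.3e-10). P3h3 rose from 47.4 to 67.7 CPM (0.52, adjusted p 0.00428), and so did Ctsk, a collagen-degrading cathepsin, from 22.04 to 36.3 CPM (0.72, adjusted p 0.0185). Agrn did not pass (0.29, adjusted p 0.346). Of 64 handling genes, 12 passed the interaction test, against 8.84% of all genes, and the effect was lower in the RPE for each (5.73% of all genes).

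The single-cell libraries gave the source cells of each collagen at P19 to P30. Cells were clustered without the collagen genes, and 26764 cells with 1349 to 4357 median unique molecular identifiers (UMIs) per library entered. Cells named as rods were few in the WT libraries of P19 and P25 (128 and 58 cells). There, 861 and 725 cells lay in a shallow cluster in which 7 of 7 rod markers were raised. That cluster stayed unnamed because it had few UMIs and no marker among its leading genes. Across the libraries, 98 cells carried barcodes found in more than 1 library. Of the 44 members, 42 had at least 20 UMIs in the matrix. Levels are in UMI CPM, the UMIs of a gene as counts-per-million UMIs of a class, pooled over libraries, with no test.

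Vascular cells held the most Col4a1. Endothelial cells (260 cells) had 1436 UMI CPM of Col4a1 and 63.9% of all its UMIs, and pericytes and mural cells (120 cells) had 2420 UMI CPM and 17.3%. For Col4a2 the levels were 924.1 and 1257 UMI CPM. Fibroblasts had 198.7 and 123.0 UMI CPM and rod bipolar cells 50.63 for each chain, whereas cones had 1.51 UMI CPM of Col4a1 and 1.00 of Col4a2. In the bulk retina the endothelial markers summed to 259.7 to 315.3 CPM in the WT and to 432.5 to 457.9 CPM in the KO, with Kdr and Flt1 higher, Emcn lower, and Pecam1, Cdh5, Cldn5 and Tie1 not passing. Pericyte markers summed to 121.5 to 128.8 CPM in the WT and to 121.3 to 135.8 CPM in the KO, and the part of either cell type in the rise of Col4a1 was not tested. Per library, Col4a1 was at 1409 and 1279 UMI CPM in WT endothelial cells of P19 and P25 and at 1607 and 1556 in KO endothelial cells. In pericytes it was at 2093 and 3125 UMI CPM in the WT and at 2769 and 4391 in the KO at those ages, where the P19 values rest on 41 and 43 cells and the P25 values on 6 and 11. At P30 the order was not the same, with 0 UMIs in 8 WT and 181.8 UMI CPM in 16 KO endothelial cells, and 637.7 in 6 WT and 202.8 in 13 KO pericytes, from at most 7 UMIs each. With 1 library a group these differences have no replicate check.

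Müller glia, the radial glia of the retina, carried 29.2% of all collagen UMIs and were 7.85% of the cells. They gave 51.8% of the UMIs of Col9a1, 77.0% of those of Col2a1, 54.2% of Col23a1, 45.5% of Col4a5 and 42.6% of Col4a6, and 61 of the 66 UMIs of Col22a1. Higher levels of the type II and IX chains stood in a pair of small clusters without a cell type name. In 45 cells led by the lens gene Cryaa and by Optc, Col9a1 reached 5855 UMI CPM, and in 60 cells led by Npvf and Best2 it reached 4705 UMI CPM, against 762.6 in Müller glia and 4.81 in rods.

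Several collagens had most of their UMIs in neurons. Starburst amacrine cells had 370.9 UMI CPM of Col25a1 and the other amacrine cells 21.03, and together they held 43.7% and 45.5% of its UMIs, while cones had 0.502 UMI CPM. Horizontal cells held 62.9% of the UMIs of Col27a1, a fibrillar chain, at 216.3 UMI CPM, or 453.3 without the 5% of cells with the most UMIs. Amacrine cells, 17.1% of the cells, held 82.1% of the UMIs of Col6a1, 87.4% of Col6a4 and 85.7% of Col6a6, the 3 type VI chains that rose in the bulk retina. Their levels were 48.6, 2.69 and 1.27 UMI CPM. Fibroblasts were higher for Col6a1 (397.5 UMI CPM) and, from 2 UMIs, for Col6a6 (18.93). Without the 5% of cells with the most UMIs, ganglion cells led for Col6a4. Bulk amacrine markers summed to 1061 to 1191 CPM in the WT and to 1137 to 1191 CPM in the KO. Cones had the highest pooled level of Col17a1, at 22.1 UMI CPM, but 77 of their 132 UMIs came from the KO library of P19 (66.18 UMI CPM). The cones of the KO library of P25 were at 19.68 UMI CPM. Rods held 60.3% of the UMIs of Col19a1.

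Fibroblasts led for the most members of any class, and RPE cells led for 4. The 17 fibroblasts, 11 of them in the KO library of P25, led for 16 members, with 2508 UMI CPM of Col3a1, 2300 of Col1a2 and 1647 of Col1a1, while rods and cones had no UMI of Col3a1. Some of these leads rested on few fibroblast UMIs, namely 2 each for Col26a1 and Col6a6 and 5 each for Col7a1 and Col14a1. The 55 RPE cells had the highest levels of Col8a1 (1881 UMI CPM), Col8a2 (558.6), Col4a3 (303.9) and Col4a4 (287.5). At a coarser clustering (resolution 0.5) the RPE class had 76 cells and these levels were 1021, 284.5, 175.7 and 167.4, still the highest of any class. They held 74.7% of the UMIs of Col8a2 and 13.6% of those of Col4a3, of which endothelial cells held 28.3%. Col18a1 was not led by RPE cells, which had 386.1 UMI CPM of it and 2.17% of its UMIs. The 60 cells led by Npvf and Best2 had 945.1 UMI CPM. The 45 cells led by Cryaa and Optc had 848.4 UMI CPM and 32.1% of its UMIs. Their part in its fall in the bulk RPE, where 2 of 6 lens markers were lower in the KO, was not tested.

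**Figure D4:**
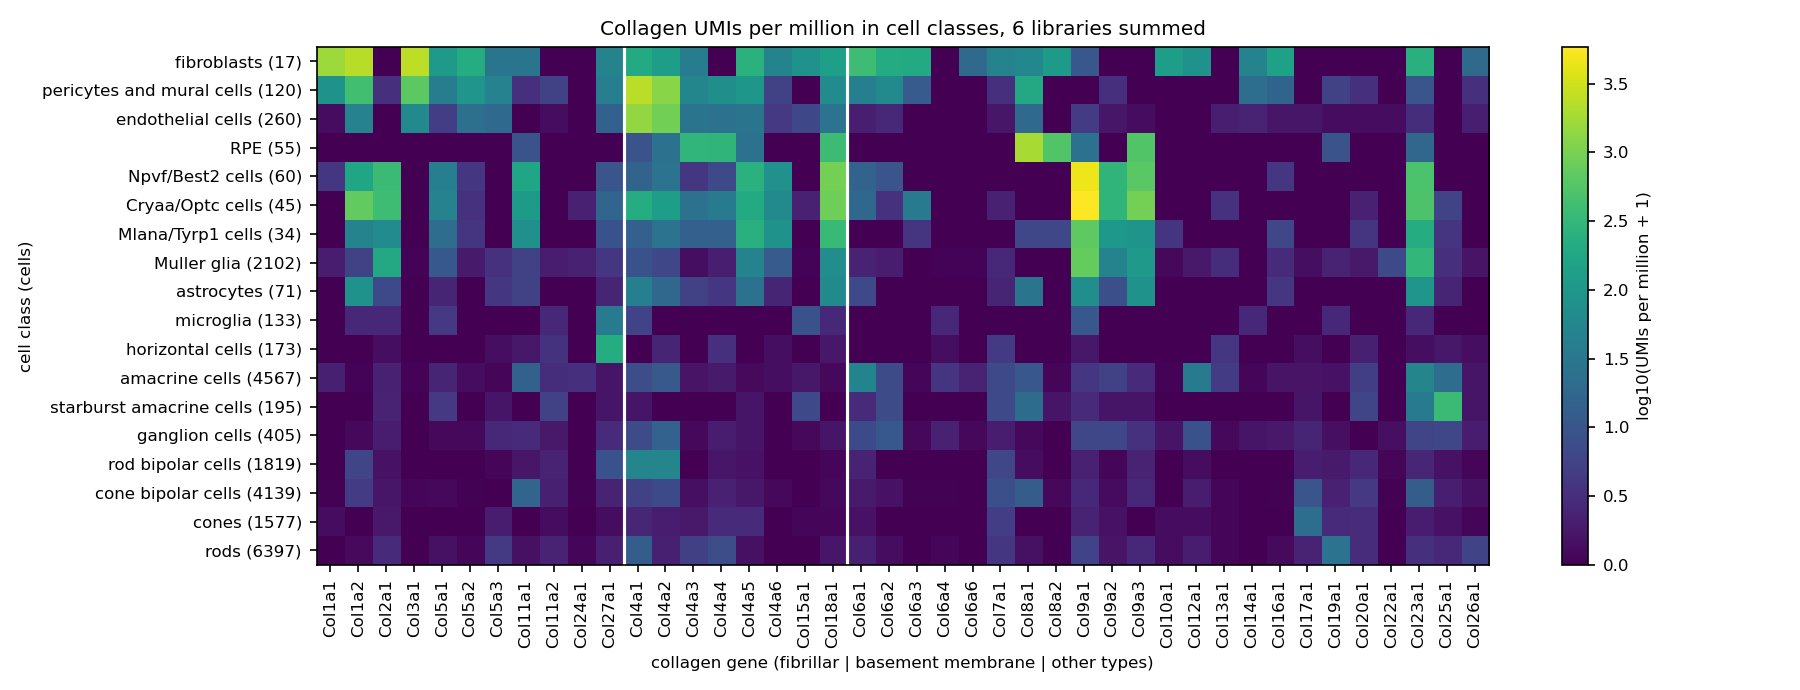
UMI CPM of 42 collagens in 18 cell classes and clusters, pooled over 6 single-cell libraries, as log10 of the value plus 1. Col4a1 and Col4a2 are strongest in pericytes and endothelial cells (Col4a1 at 2420 and 1436 UMI CPM), type I and III chains in fibroblasts, and Col8a1, Col8a2, Col4a3 and Col4a4 in RPE cells.

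In Müller glia the genotypes were compared over the ages, with 2102 cells summed into 3 WT and 3 KO libraries. Of 18 members with enough UMIs, 0 passed by limma-trend, against 1.02% of all genes, and 5 had an unadjusted p below 0.05. By edgeR's quasi-likelihood test on the same sums 2 passed, Col23a1 and Col9a1, both lower. That test called 853 of all 12558 genes, where limma-trend called 128. Col9a1 was at 1253, 736.3 and 548.5 UMI CPM in the WT at P19, P25 and P30 and at 995.2, 502.4 and 239.7 in the KO. It was lower in the KO at each age (-0.57 ± 0.155, adjusted p 0.168 by limma-trend). Col23a1 was at 404.6, 442.6 and 149.9 in the WT and at 293.9, 259.5 and 110.7 in the KO, also lower at each age (-0.43, adjusted p 0.201). Col9a3 (-0.46, adjusted p 0.273) and Col2a1 (-0.35, adjusted p 0.305) had the same sign at 3 of 3 ages.

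Col4a1 was at 4.62, 5.34 and 0 UMI CPM in WT Müller glia and at 9.47, 10.4 and 4.10 in KO Müller glia, from 0 to 38 UMIs in a library (adjusted p 0.292 by limma-trend). Of Col22a1, Müller glia had 12.5, 5.34 and 3.95 UMI CPM in the WT and 5.76, 4.63 and 2.05 in the KO. Bulk Müller markers were higher in the KO retina (4813 to 5102 against 4006 to 4282 CPM, 5 of 7 genes higher and 1 lower). The WT and KO libraries of P30 came from another sequencing run than those of P19 and P25, so that age and run cannot be told apart.

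**Figure D5:**
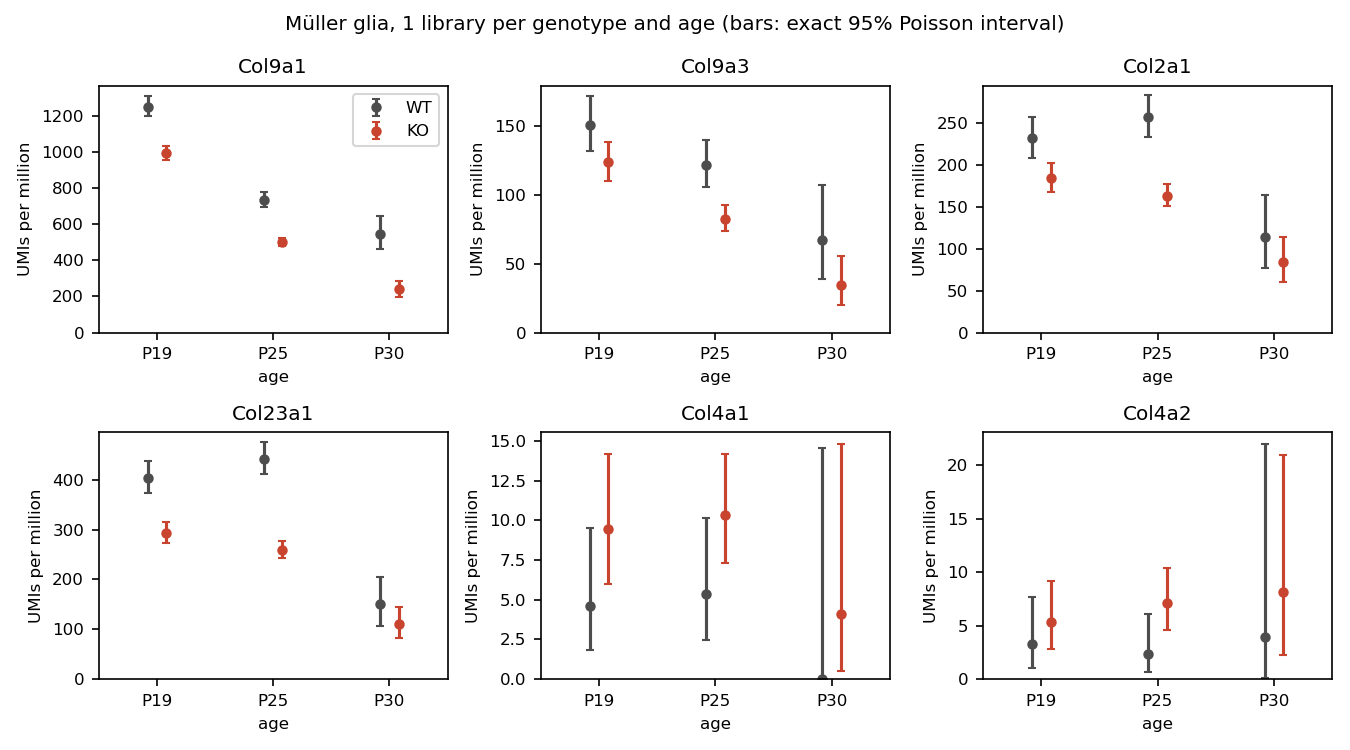
UMI CPM of Col9a1, Col9a3, Col2a1, Col23a1, Col4a1 and Col4a2 in Müller glia of WT and KO libraries at P19, P25 and P30, with exact 95% Poisson intervals for counting error. Col9a1 in the KO lies below the WT at each age, at 995.2 against 1253 UMI CPM at P19.

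For starburst amacrine cells, the levels of Col25a1 were 433.8, 373.5 and 159.5 UMI CPM in the WT at P19, P25 and P30 and 322.2, 501.3 and 396.5 in the KO, with no constant order of the genotypes. In the other amacrine cells they were 11.9, 18.8 and 13.5 in the WT and 31.6, 26.4 and 19.1 in the KO, higher in the KO at each age, with 1 library a group and no test.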

How the data were processed

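Bulk libraries of retina and RPE and single-cell libraries of the retina were grouped as labelled, by tissue, genotype and age. The members, the 68 handling genes and the marker lists were chosen with earlier results of these data known.

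The deposited bulk tables hold unnormalised read counts of each gene. For single cells the authors scaled each cell to 10000 and took the natural log, and the deposited values had that log applied a second time, and 99.99969% of the UMI counts recovered from them were whole to within 0.01. The labels name Cell Ranger 2.1, Seurat 3.2.2, edgeR 3.20.9 and mm10, and, without versions, HOMER, FastQC and bcl2fastq. For the bulk reads, no aligner was given in the sources used here, and whether HOMER did the counting was not checked. A shift in how reads of overlapping genes were counted would move those genes, and 13 of 44 collagens share exon bases with another gene, at most 6.07%. Symbols and exon lengths came from GENCODE M21.

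CPM used TMM-scaled library sizes, set within each tissue. Genotypes were compared within tissues with edgeR 4.0.16 (quasi-likelihood test, TMM, filterByExpr, Benjamini-Hochberg over all genes tested, in R 4.3.3), and tissues and the interaction over all 16 libraries, with limma 3.58.1 and DESeq2 1.42.0 as alternatives. A call was an adjusted p below 0.05. Same-numbered WT and KO libraries deviated together (correlations of 0.157 to 0.218 in the retina and 0.287 to 0.655 in the RPE). Some pairs with different numbers did so as strongly, such as WT 1 with KO 4 in the RPE (0.617) and WT 3 with KO 4 in the retina (0.173). Other such pairs were negative, as WT 1 with KO 3 in the RPE (-0.642). The replicate number was also fitted as a block, although these correlations do not single out pairs of the same number. Tested on simulated data, the comparisons recovered 87% of 2-fold changes in the retina, 50% in the RPE and 14% in Müller glia. Cells were clustered with scanpy 1.11.5 (2000 variable genes without collagens, 30 components, 15 neighbours, Leiden resolution 1.0), no doublet caller was run, and classes were named from markers. UMIs of Müller glia were summed per library and compared with limma-trend (prior count 2, age as a factor, genes with at least 20 UMIs). Poisson intervals cover counting error only.

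Members were named by the 16 smallest p-values among 26 past the threshold in a tissue or the interaction and by the 9 highest RPKM values, 3 of each type group, and handling genes by the 2 smallest p-values of each role and tissue. Others were added after their values were seen. Protein sequences were not used here.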

Additional observations from a re-analysis of the deposited data

Results flagged for a closer look

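Differences between the tissues in the effect of genotype, tested as an interaction, flagged 3 collagens and 8 of the named handling genes. The log2 effect in the RPE minus that in the retina was -1.24 for Col18a1, -0.851 for Col4a1 and 1.64 for Col4a3. It was -0.477 for P3h3, -2.93 for Pcolce, -4.54 for Loxl4, -2.79 for Timp1, -0.686 for Timp2, -0.62 for Ddr1, -1.01 for Itga2 and -1.45 for Agrn. In Pcolce both tissues rose, by 4.74 in the retina and 1.79 in the RPE, while Loxl4 rose in the retina and fell in the RPE.

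Single libraries stood apart from the other 3 of their group in 12 of 148 groups examined, where the gap to the nearest library, as a share of the range, was above Dixon's 95% critical value for 4 samples. Chance gives about 1 in 20 such groups. KO retina replicate 2 was high for Col1a1 (7.94 CPM) and Col3a1 (40.1 CPM) and stood at 2.28 CPM for Col22a1, nearer to the WT than the other KO libraries, and it is the library with corneal and muscle markers. The other KO retina library was replicate 3, at 5.58 CPM for Col16a1. Among WT retina libraries, replicate 3 was low for Col22a1 (2.37 CPM), replicate 1 was low for Col9a3 (11.8 CPM), and replicate 2 was low for P4ha3 (0.635 CPM) and high for Lamb1 (27.7 CPM). In the WT RPE, replicate 1 was high for Col3a1 (611.2 CPM) and replicate 2 low for Col8a1 (1194 CPM). In the KO RPE, replicate 4 stood apart for Ddr1 (175.1 CPM) and replicate 1 for Nid2 (245.3 CPM).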

How the results depend on the processing

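In the retina, 23 collagens passed, 15 to 26 when 1 library was left out (15 without WT replicate 1), 10 with a fold change of at least 1.5, and 4 in a single fit of all 16 libraries, Col11a1, Col16a1, Col4a1 and Col4a3, all among the 23. With the replicate number as a block 28 passed. Over all genes, 5990 passed in the main fit, 4941 without WT replicate 1, 2731 in the single fit and 5852 with the block. In the RPE the count of 3 ranged from 0 to 5 when 1 library was left out. It was 5 without WT replicate 1, 1 without WT replicate 4 or KO replicate 1, and 0 without KO replicate 2, 3 or 4, where edgeR's quasi-likelihood test left 7, 9 and 5 members with an unadjusted p below 0.05. DESeq2 called 5, the 3 and Col4a3 and Col9a1. The single fit of 16 libraries called 5 and none of the 3, namely Col12a1, Col23a1, Col2a1, Col9a1 and Col9a2. Over all genes of the RPE, DESeq2 called 2701 and the single fit 2863, against 1278 in the main fit. The cause of these changes was not tested. With the block, 2 passed in the RPE.

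The interaction count of 3 was 7 with library totals alone, 7 with DESeq2 and 2 to 7 when 1 replicate was left out (7 without WT replicate 3). Interaction calls over all genes were 1863 in the main fit, 2513 with library totals alone, 2267 with DESeq2 and 1706 without WT replicate 3. Col4a1 and Col4a3 passed there under all 14 alternatives, Col18a1 under 8. In the tissue contrast the count was 35 to 36 when a replicate was left out. Handling genes ranged from 29 to 38 in the retina and from 3 to 8 in the RPE (8 without WT replicate 1, 7 without WT replicate 2). In Müller glia 2 members passed with edgeR, which called 853 of 12558 genes, and 1 each time an age was left out. This was Col9a1 without P19 (414 of 11678 genes called) or P25 (333 of 11094) and Col23a1 without P30 (568 of 12416). Without the 5% of cells with the most UMIs, collagen UMI CPM became 1679 in Müller glia (1608 in all cells), 2312 in endothelial cells (2681), 6046 in pericytes (5732) and 4511 in RPE cells (4091). Among collagens the block changed no call in the retina, the RPE or the interaction beyond the 6 given beside the results, and 37 handling genes passed with it in the retina and 4 in the RPE. No called collagen turned its direction, while the median over the collagens of the RPE ran from -0.0916 to 0.276 when 1 library was left out. Alternatives for the 21 named collagens and for the 8 ratios of partner chains were counted together. Of these, 917 left the result as it was, 24 gained a call and 46 lost it. The ratios have no call, and for them an unchanged result meant a shift smaller than the spread between libraries. The 4 libraries a group recovered 50% of simulated 2-fold changes in the RPE, which limits what an uncalled member there shows.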

Other observations

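Some collagens were highest in clusters that carried no class name. Col12a1, a fibril-associated chain, was at 267.3 UMI CPM in a cluster of 457 cells whose leading genes included Neurod6 and Vwa5b1, at 106.7 in a cluster of 575 cells and at 35.2 in the amacrine cells, which held 52.1% of its UMIs. Col11a2, a minor fibrillar chain, was at 35.5 UMI CPM in a cluster of 459 cells whose leading genes included Krt24 and Ppp1r17, which held 17.7% of its UMIs. In the bulk retina Col12a1 did not pass (0.16, adjusted p 0.0725). Rod bipolar cells carried Col4a1 at 69.5, 55.4 and 32.7 UMI CPM in the WT at P19, P25 and P30 and at 38.4, 50.7 and 22.6 in the KO, lower in the KO at each age, with 1 library a group and no test.

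The class with the highest level of each collagen was the same at a clustering resolution of 0.5 for all 29 members led by a named class, and for 38 of 42 members without the 5% of cells with the most UMIs in each library.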
